A study of Mus musculus with 8 samples.

Results

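The 10 genes described here encode the constant regions of mouse antibodies and the J chain: the heavy chain genes Ighm, Ighd, Ighg3, Ighg1, Ighg2b, Ighg2c and Igha, the light chain genes Igkc and Iglc1, and Jchain. They were picked out by symbol from the 51789 genes of the deposited count table, and all 10 had enough counts to be tested. The libraries come from whole abdominal mammary glands of immunocompetent female C57BL/6 mice, collected 6 weeks after an injection into the gland of small extracellular vesicles (sEVs). The sEVs were shed by AT3 cells, a metastatic line of mouse mammary adenocarcinoma, grown in normoxia (sEV-NORM, 3 glands) or hypoxia (sEV-HYP, 2 glands), and control glands received a preparation from medium that no cell had conditioned (sEV-CTRL, 3 glands). The age of the mice is not given in the sources used here, and all vesicles of sEV-NORM and sEV-HYP came from that same cell line.

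An antibody is built from heavy and light chains, and the constant region of the heavy chain sets its class. A naive B cell makes IgM and IgD from the same transcript by alternative splicing, and class switching then joins the same variable region to a downstream constant gene such as an IgG or IgA gene. Plasma cells, the secreting end of the lineage, carry far more immunoglobulin transcript per cell than B cells do, and the J chain links IgM and IgA into the polymers that the receptor encoded by Pigr carries across epithelia. In the mammary gland, IgA plasma cells are known to accumulate around lactation, and the gland of a mouse can hold a lymph node rich in B cells. In a bulk library, fewer cells of a type and less RNA per cell cannot be told apart.

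The IgG subclasses were counted as separate genes, each over all of its exons. Among these is the hinge, the flexible exon between the arms and the stem of the antibody. The 4 hinge exons are shown because the results below turn on differences between these subclasses. They are read from GRCm38 on the minus strand of chromosome 12, 5′ to 3′, with the in-frame cysteine codons in capitals.
Ighg1 (chr12:113329844-113329882): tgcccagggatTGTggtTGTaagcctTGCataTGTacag
Ighg2b (chr12:113307261-113307326): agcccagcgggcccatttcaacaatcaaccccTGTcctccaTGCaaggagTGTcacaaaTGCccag
Ighg2c (chr12:113288263-113288325): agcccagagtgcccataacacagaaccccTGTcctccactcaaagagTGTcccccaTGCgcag
Ighg3 (chr12:113360529-113360576): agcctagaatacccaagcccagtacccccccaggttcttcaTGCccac
The exons of Ighg1 and Ighg2b hold 4 cysteine codons each, that of Ighg2c holds 3 and that of Ighg3 holds 1. Over the full exon sequence of each gene, 5.486% of the 50-base windows of Ighg2c also occurred in Ighg2b, against 0.393% of those of Ighg1 in any other constant gene listed, so counts of Ighg2b and Ighg2c could trade a small share of reads.

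The secreted forms of IgA and IgM end in a tailpiece whose penultimate codon encodes the cysteine to which the J chain binds. The last 18 codons of each are printed with that codon in capitals, because Jchain is set against Igha and Ighm below.
Igha (chr12:113258771-113258824): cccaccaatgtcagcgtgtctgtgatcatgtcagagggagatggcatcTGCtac
Ighm (chr12:113420870-113420923): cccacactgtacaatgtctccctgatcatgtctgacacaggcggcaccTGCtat
These tailpieces were identical at 35 of 54 bases. No 50-base window of Igha or Ighm occurred in another constant gene listed.

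Libraries held 18194996 to 24622569 counts, and values are given as CPM, the counts scaled to a common library size with TMM factors. Groups were compared for 17858 genes by the quasi-likelihood test of edgeR (F statistic, two-sided), with 1 model of the 3 groups, and a gene was called at an unadjusted P under 0.05, the threshold of the study. No gene reached an adjusted P under 0.05 with edgeR in any of the 3 comparisons, while 706, 438 and 290 genes had an unadjusted P under 0.05 for sEV-HYP against sEV-NORM, sEV-HYP against sEV-CTRL and sEV-NORM against sEV-CTRL. DESeq2 on all libraries gave an adjusted P under 0.05 for 16, 4 and 2 genes, and DESeq2 on only the groups compared for 83, 14 and 3 genes. The smallest edgeR adjusted P of any gene was 0.807, 0.99988 and 0.99981 in the same order, so that a gene called below passed only the unadjusted threshold. Both sEV-HYP comparisons use the same 2 sEV-HYP libraries.

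All 10 genes were transcribed in every gland, and together they took from 0.232% of the counts in sEV-HYP replicate 2 to 1.73% in sEV-CTRL replicate 1. Per kilobase of exon, the light chain gene Igkc led with a median of 3262 CPM per kilobase over the 8 libraries, followed by Ighm at 831 and Ighd at 319, the genes of unswitched B cells. Ighg2c had a median of 255 CPM per kilobase, Ighg1 194, Iglc1 149, Jchain 99.7 and Ighg2b 82.8. Ighg3 at 6.36 and Igha at 2.56 were the lowest. With the length of the shortest transcript in place of all exons, the first 3 places and the last 2 were unchanged, and Ighg1 at 468 stood above Ighg2c at 304.

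**Figure D1:**
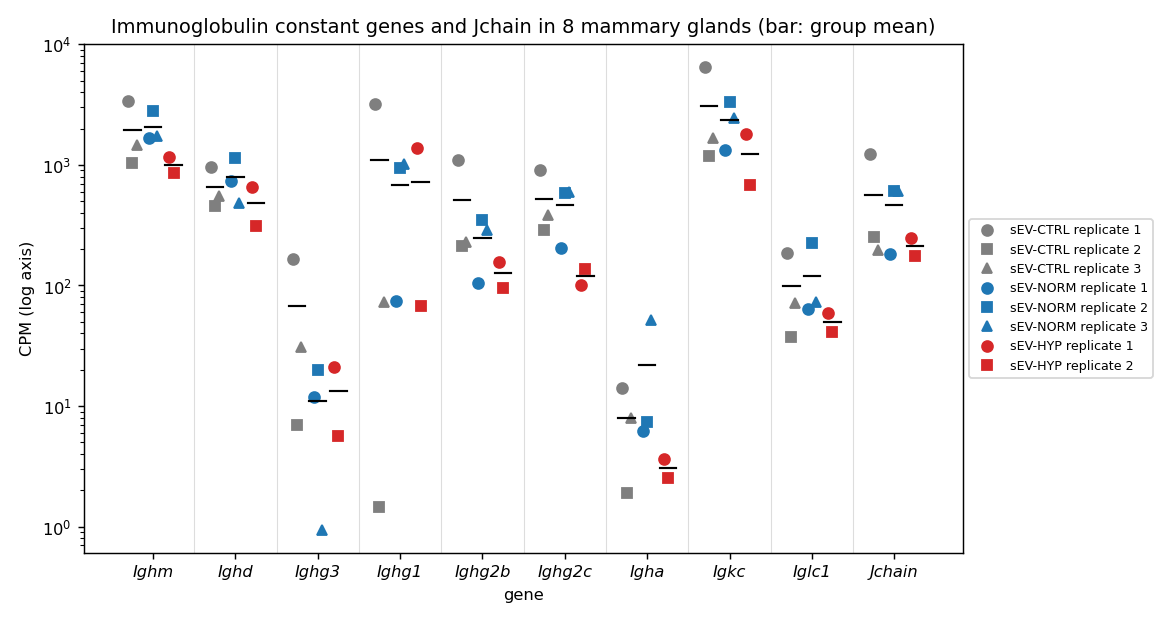
CPM (log axis) of the 7 heavy chain genes, the 2 light chain genes and Jchain in each library, with color for the group, shape for the replicate number and a bar for the group mean. Ighg1 ran from 1.46 to 3189 CPM among the sEV-CTRL glands alone, and Ighg2c in both sEV-HYP glands lay below every other gland.

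Ighg2c, which encodes the heavy chain of the IgG2c subclass that C57BL/6 mice carry in place of IgG2a, was lower in sEV-HYP glands than in either other group. Its CPM was 102 and 137 in the sEV-HYP glands. It was 204, 581 and 600 in the sEV-NORM glands and 901, 290 and 385 in the sEV-CTRL glands. Both sEV-HYP values lay below all 6 others. Both differences were called by edgeR, with a log2 fold change of -1.95 (SE 0.58) from sEV-NORM and of -2.13 (SE 0.59) from sEV-CTRL. DESeq2 on only the groups compared gave adjusted P values of 0.0043 and 0.0046, whereas with DESeq2 on all libraries they were 0.645 and 1. In the absence of sEV-HYP replicate 1 the change against sEV-NORM was -1.75 and not called, and that against sEV-CTRL was -1.93 and called.

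Between sEV-NORM and sEV-CTRL glands, Ighg2c differed by -0.19 (SE 0.48), within the spread of the glands. Its neighbor Ighg2b, the gene of the IgG2b subclass, measured 155 and 96.2 CPM in sEV-HYP glands. The sEV-NORM glands had 104, 347 and 286 CPM and the sEV-CTRL glands 1102, 213 and 230 CPM. The sEV-HYP values were below all sEV-CTRL values but overlapped those of sEV-NORM. The log2 fold change was -2.03 (SE 0.79) against sEV-CTRL, which was called, and -0.96 (SE 0.75) against sEV-NORM, which was not. Without sEV-CTRL replicate 1, which held the highest value, the change against sEV-CTRL was -0.82 and no longer called. It was not called either without sEV-HYP replicate 1 (-2.42) or without sEV-HYP replicate 2 (-1.73).

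Ighg1, the gene of the IgG1 subclass, varied widely between glands. It was at 3189, 1.46 and 72.9 CPM in the sEV-CTRL glands, at 74.1, 933 and 1017 in the sEV-NORM glands and at 1374 and 68.0 in the sEV-HYP glands. High and low glands thus occurred in every group. The highest value was 2185 times the lowest, both of them in sEV-CTRL glands, and the lowest rested on 32 counts. The biological coefficient of variation of Ighg1 was 1.35, above that of 99.7% of tested genes, against a common value of 0.297. None of its differences was called, with log2 fold changes of 0.10 (SE 2.07) for sEV-HYP against sEV-NORM and -0.59 (SE 2.11) for sEV-HYP against sEV-CTRL, and their sign depended on single glands.

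Ighg3, the gene of the IgG3 subclass, was at 165, 6.93 and 30.9 CPM in sEV-CTRL glands and at 21.2 and 5.67 CPM in sEV-HYP glands. Among the sEV-NORM glands it was at 11.9 and 19.99 CPM, while replicate 3 held 0.946 CPM, from 20 counts. The groups overlapped in each comparison, and the closest to the threshold was sEV-NORM against sEV-CTRL, at a log2 fold change of -2.62 (SE 1.19). Without sEV-CTRL replicate 1 this value was -0.82. The call was gained without sEV-CTRL replicate 2 (-3.16) and without sEV-NORM replicate 2 (-3.38).

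Igha, the gene of IgA, the antibody of milk and mucosae, was scarce in these glands. Its values were 14.1, 1.92 and 8.04 CPM in sEV-CTRL glands, 6.23, 7.45 and 51.6 CPM in sEV-NORM glands, and 3.62 and 2.52 CPM in sEV-HYP glands. The sEV-HYP values lay below all sEV-NORM values and within the range of sEV-CTRL. A single gland, sEV-NORM replicate 3, held 54.0% of the summed Igha CPM of the 8 libraries. The log2 fold change of sEV-HYP against sEV-NORM was -2.82 (SE 1.09) and was called. Without that gland it was -1.15 and not called, and the call was also lost without sEV-HYP replicate 1, sEV-HYP replicate 2 or sEV-CTRL replicate 3. Against sEV-CTRL it was -1.38 (SE 1.04) and not called.

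Ighm, the gene of IgM, was at 3381, 1033 and 1454 CPM in sEV-CTRL glands and at 1680, 2789 and 1744 CPM in sEV-NORM glands. The sEV-HYP glands had 1153 and 860 CPM, below all sEV-NORM glands, with 1 of the 2 below all sEV-CTRL glands. The change of -1.04 against sEV-NORM (SE 0.48) and that of -0.96 against sEV-CTRL (SE 0.48) did not pass the threshold. The first was called by DESeq2 on only the groups compared, with an adjusted P of 0.0484. It was also called by edgeR without sEV-CTRL replicate 1 or 2, on only the groups compared and without a filter on low counts, and by DESeq2 on all libraries at an unadjusted P under 0.05. The change against sEV-CTRL was called by both forms of DESeq2, by edgeR without a filter and without sEV-CTRL replicate 2, and it was -0.31 without sEV-CTRL replicate 1.

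Ighd, the gene of IgD, which marks mature B cells before they switch, was at 953, 453 and 552 CPM in sEV-CTRL glands. It was at 741, 1147 and 483 CPM in sEV-NORM glands and at 660 and 313 CPM in sEV-HYP glands. These groups overlapped throughout, and Ighd had the smallest range of the 10 genes, with the highest gland 3.67 times the lowest. Its log2 fold change was -0.70 (SE 0.46) against sEV-NORM and was not called. In the absence of sEV-HYP replicate 1 it was the only one of the 10 genes called against sEV-NORM (-1.34).

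The kappa light chain gene Igkc (chr6:70726435-70726966, plus strand) was at 6462, 1179 and 1671 CPM in sEV-CTRL glands, 1332, 3297 and 2459 CPM in sEV-NORM glands, and 1799 and 684 CPM in sEV-HYP glands. The lambda gene Iglc1 (chr16:19061618-19062071, minus strand) was at 187, 37.7 and 71.5 CPM, at 63.8, 224 and 73.5 CPM, and at 59.5 and 41.0 CPM in the same order of groups. For Iglc1 the sEV-HYP glands lay below all sEV-NORM glands, and for Igkc the groups overlapped. The log2 fold changes of sEV-HYP against sEV-NORM were -0.93 (SE 0.74) for Igkc and -1.26 (SE 0.72) for Iglc1, neither of them called. Igkc overlaps Gm30211 on its strand, a gene at 6.69 to 30.9 CPM, and Iglc1 overlaps 2010309G21Rik on the other strand, a gene at 0.305 CPM or less.

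Jchain (chr5:88519809-88527891, minus strand) was at 1224, 254 and 198 CPM in sEV-CTRL glands and at 182, 607 and 602 CPM in sEV-NORM glands. In sEV-HYP glands it was at 247 and 176 CPM, within the range of both other groups but for the lower gland. The log2 fold change was -1.13 (SE 0.79) against sEV-NORM and -1.40 (SE 0.80) against sEV-CTRL, neither of them called. Without sEV-CTRL replicate 1 the change against sEV-CTRL was -0.10, and that against sEV-NORM, at -1.12, was called.

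Across the 10 genes, 2 were called lower in sEV-HYP than in sEV-NORM glands, Ighg2c and Igha, against 1.70% of all tested genes called lower, and 0 were called higher, against 2.25%. In either direction the share of all genes was 3.95%. For 4 of the 10, Ighg2c, Igha, Ighm and Iglc1, both sEV-HYP glands lay below all sEV-NORM glands, as did 10.5% of tested genes, and for 0 of the 10 they lay above, as did 12.3%, so that the 2 groups were apart for 22.8% of tested genes. Fold changes were below 0 for 8 of 10, against 53.0% of tested genes, with a median of -1.003 against -0.02 for all genes. Without sEV-HYP replicate 1, 1 of the 10 was called, and without sEV-NORM replicate 2 the median was -0.62. Most of these transcripts come from the same cell lineage, so the 10 genes are not independent of each other.

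Against sEV-CTRL, 2 of the 10 genes, Ighg2b and Ighg2c, were called lower in sEV-HYP glands, beside 1.06% of all tested genes called lower, and 0 were called higher, beside 1.39%, which makes 2.45% of genes called in either direction. The same genes were the 2 whose sEV-HYP values lay below all sEV-CTRL values, beside 6.08% of tested genes, and 6.70% of tested genes lay above and 12.8% apart in either direction. All 10 fold changes were below 0, against 52.5% of tested genes, with a median of -1.35 against -0.02. That median rested on sEV-CTRL replicate 1. When this gland was left out it was -0.26 with 9 of 10 below 0, Ighg2c alone was called, and the change of Ighg1 became 4.26. Without sEV-CTRL replicate 2, 5 genes were called, Ighg2b, Ighg2c, Ighg3, Ighm and Igkc.

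Between the sEV-NORM and the sEV-CTRL glands, 0 of the 10 genes were called by edgeR, and 0 by either form of DESeq2, which gave no P for Ighg1, beside 1.62% of all tested genes by edgeR (0.890% higher and 0.734% lower). Of the 10 fold changes 6 were below 0, against 50.2% of tested genes, and the median was -0.23. When sEV-CTRL replicate 1 was left out, the median was 0.71 and Ighg3 alone was below 0, and without sEV-NORM replicate 1 the median was 0.14. For none of the 10 were the groups apart, as they were for 4.86% of tested genes (2.69% higher and 2.17% lower). Ighm was called higher in sEV-NORM glands when sEV-CTRL replicate 1 was left out (0.71).

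**Figure D2:**
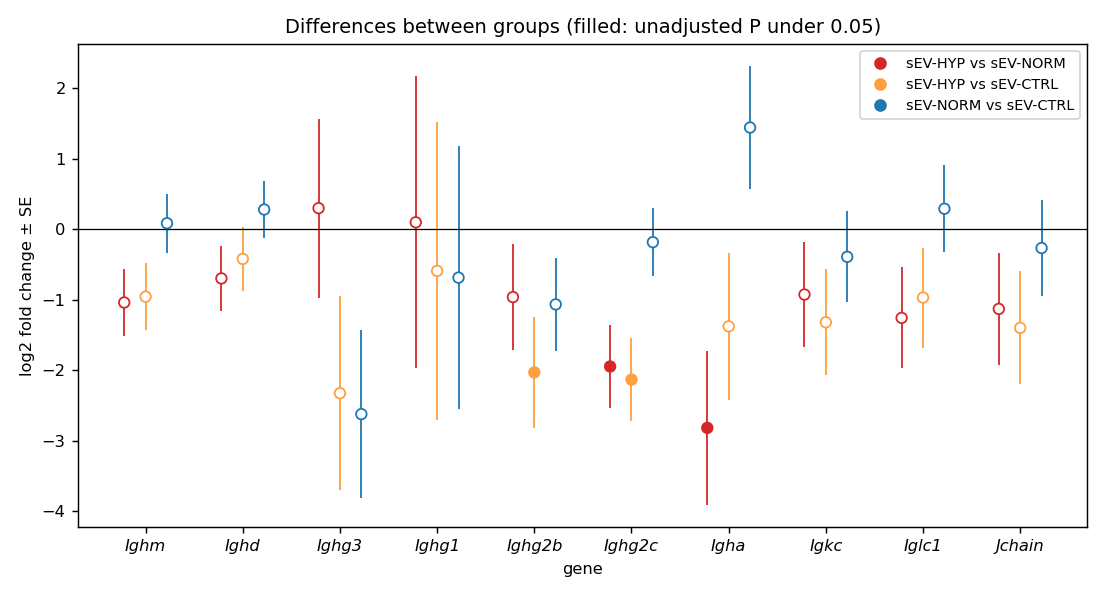
Log2 fold change with its SE from the edgeR model for each of the 10 genes in the 3 comparisons, filled where the unadjusted P was under 0.05. The filled points are Ighg2c in both sEV-HYP comparisons, Igha against sEV-NORM and Ighg2b against sEV-CTRL, and the widest bars are those of Ighg1.

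Isotypes were next compared within each library, as shares of the summed counts of the 7 heavy chain genes. These shares are ratios within a library, in which genes with longer transcripts weigh more. The exact binomial (Clopper-Pearson) 95% interval was at most 0.583 percentage points on either side of each share and covers counting error only. Ighm and Ighd together made up 44.7%, 74.3% and 73.4% in sEV-CTRL glands, 85.8%, 67.6% and 53.2% in sEV-NORM glands, and 52.3% and 79.1% in sEV-HYP glands. The IgG genes made up nearly all of the rest, from 13.98% in sEV-NORM replicate 1 to 55.2% in sEV-CTRL replicate 1.

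The IgG part was led by different subclasses in different glands. Ighg1 made up 59.5%, 0.285% and 10.1% of the IgG counts in sEV-CTRL glands, 18.8%, 49.6% and 53.4% in sEV-NORM glands, and 83.2% and 22.1% in sEV-HYP glands. Ighg2c took 56.7% and 53.6% of them in the sEV-CTRL glands with low Ighg1, and 6.16% in sEV-HYP replicate 1, where Ighg1 was highest. The ratio of Ighg1 to Ighg2c counts ran from 0.00504 in sEV-CTRL replicate 2 to 13.5 in sEV-HYP replicate 1. Low Ighg2c went with a large IgG1 share in 1 sEV-HYP gland, and in the other, where Ighg2c was 44.7% of IgG, with little IgG as a whole (307 CPM, against 1652 CPM in the first).

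**Figure D3:**
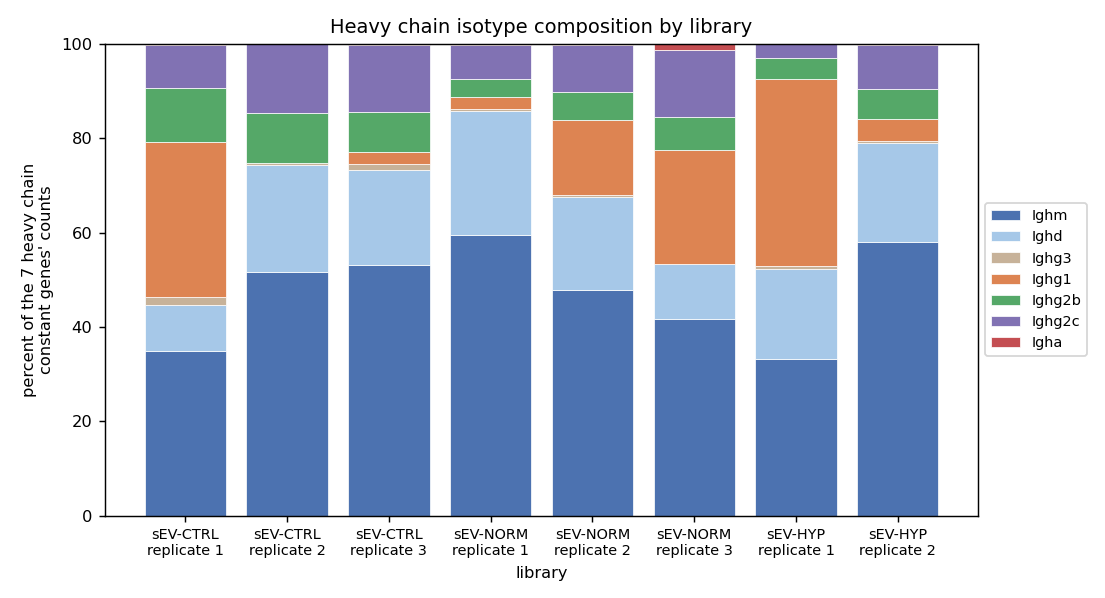
Stacked shares of the 7 heavy chain constant genes in each library, in percent of their summed counts. The Ighg1 part spans 0.0730% in sEV-CTRL replicate 2 to 39.6% in sEV-HYP replicate 1, and the Igha part is visible only in sEV-NORM replicate 3, at 1.23%.

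Of the 7 heavy chain genes counted here, which leave out Ighe, Igha was the lowest in all glands but sEV-NORM replicate 3, where Ighg3 was lower, and sEV-CTRL replicate 2, where Ighg1 was lower. Its share of heavy chain counts was 0.145%, 0.0958% and 0.294% in sEV-CTRL glands, 0.221%, 0.128% and 1.23% in sEV-NORM glands, and 0.104% and 0.170% in sEV-HYP glands. The mean was 0.137% ± 0.0462 (SD, n = 2) with sEV-HYP and 0.528% ± 0.613 (SD, n = 3) with sEV-NORM, a difference that an exact permutation test did not separate (two-sided P = 0.4). With 2 glands against 3 this test cannot give a P below 0.2, and with 3 against 3 none below 0.1. All 15 tests of composition, 5 measures in 3 comparisons, had an adjusted exact permutation P of 1.

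The lambda share of the light chain counts, Iglc1 to Iglc4 over these and Igkc, was 7.09%, 12.04% and 14.04% in sEV-CTRL glands. It was 16.4%, 14.2% and 9.26% in sEV-NORM glands and 11.7% and 16.2% in sEV-HYP glands. The lowest 2 shares were those of sEV-CTRL replicate 1 and sEV-NORM replicate 3. Of the lambda genes, Iglc2 was at 37.7 to 147 CPM and Iglc3 at 53.4 to 183 CPM, near Iglc1, whereas Iglc4 was at 1.11 CPM or less and was not tested. Iglc2 and Iglc3 share sequence, with 7.651% of the windows of Iglc2 found in Iglc3.

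Jchain counts per count of Igha and Ighm, nearly all of the latter from Ighm, were 0.361, 0.246 and 0.136 in sEV-CTRL glands. They were 0.108, 0.217 and 0.335 in sEV-NORM glands and 0.214 and 0.204 in sEV-HYP glands. The sEV-HYP glands fell inside the range of both other groups. The exact permutation P values were 0.8 against sEV-NORM and 0.8 against sEV-CTRL.

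Heavy chain counts per light chain count were the measure of composition in which both sEV-NORM and sEV-HYP stood apart from sEV-CTRL, though not from each other. They were 1.40, 1.49 and 1.41 in sEV-CTRL glands, 1.77, 1.52 and 1.54 in sEV-NORM glands, and 1.70 and 1.82 in sEV-HYP glands. All sEV-NORM and sEV-HYP glands lay above all sEV-CTRL glands. The difference from sEV-CTRL was 0.328 for sEV-HYP, at the smallest P that the exact permutation test allows (0.2), and 0.179 for sEV-NORM, also at its smallest (0.1). The sum of the 10 genes was 17577, 3469 and 4674 CPM in sEV-CTRL glands, 4400, 9951 and 7318 CPM in sEV-NORM glands, and 5575 and 2383 CPM in sEV-HYP glands, with overlap in every comparison.

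Levels of B cell markers were set beside these genes. The 5 B cell markers (Ms4a1, Cd79a, Cd79b, Pax5 and Cd22) were detected in all libraries, with a summed level of 835 to 1880 CPM in sEV-CTRL glands, 849 to 2092 CPM in sEV-NORM glands and 597 and 1301 CPM in sEV-HYP glands. All 5 fold changes of sEV-HYP against sEV-NORM were below 0, with a median of -0.53, against 53.0% of all tested genes below 0. Of the 5, 0 were called by edgeR, against 3.95% of all tested genes. Ms4a1, which encodes the B cell surface protein CD20, was at 739, 383 and 306 CPM, at 515, 858 and 334 CPM, and at 534 and 262 CPM in the order sEV-CTRL, sEV-NORM, sEV-HYP.

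Set against the summed counts of these 5 markers in the same library, Ighd was nearly constant, at 0.507 to 0.569 counts per marker count over all 8 glands, a range of 1.12 times. The lambda gene Iglc3 ranged 1.37 times, Ighm 2.32 times and Iglc1 2.37 times. Wider ranges were those of Igkc at 3.37 times, Jchain at 5.08 times, Ighg2b at 7.34 times and Ighg2c at 9.04 times. Igha ranged 26.5 times, Ighg3 78.95 times and Ighg1 971 times. Ighg2c per marker count was 0.0782 and 0.230 in sEV-HYP glands, 0.156, 0.278 and 0.707 in sEV-NORM glands, and 0.479, 0.347 and 0.385 in sEV-CTRL glands. On that scale the sEV-HYP glands remained below all sEV-CTRL glands and overlapped those of sEV-NORM.

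With a B cell marker score (the mean log2 CPM of the 5 markers) as a covariate, a fit added after the data were seen, Ighg2c was still called in both sEV-HYP comparisons, with sEV-NORM (-1.73) and with sEV-CTRL (-1.89). Igha was at -2.84 against sEV-NORM and still called, and Ighg2b at -1.40 against sEV-CTRL was no longer called. In this fit the 10 genes had a median change of -0.47 for sEV-HYP against sEV-NORM and of -0.61 for sEV-HYP against sEV-CTRL. Ighm went from -1.04 to -0.54 and Ighd from -0.70 to -0.15 against sEV-NORM. Ighg3 was called higher in sEV-HYP than in sEV-NORM glands (2.32) and lower in sEV-NORM than in sEV-CTRL glands (-2.83).

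**Figure D4:**
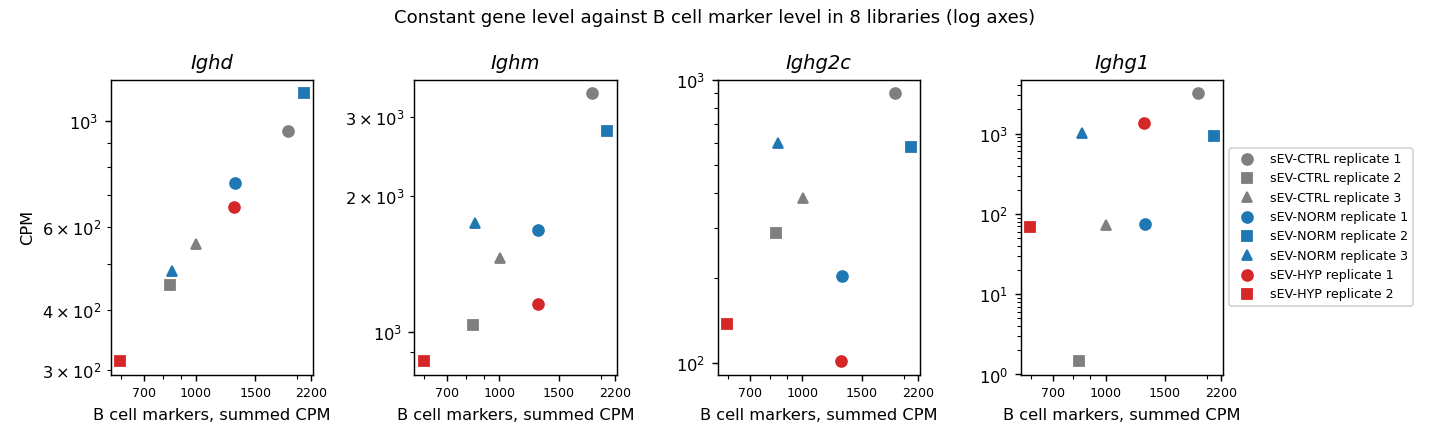
CPM of Ighd, Ighm, Ighg2c and Ighg1 against the summed CPM of the 5 B cell markers in the 8 libraries, with log axes, color for the group and shape for the replicate number. Ighd lines up with the B cell markers, whereas Ighg1 spreads from 1.46 to 3189 CPM.

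Among markers of other tissue in the gland, no gene was called by edgeR in any comparison. Of all tested genes, 3.95%, 2.45% and 1.62% were called in sEV-HYP against sEV-NORM, sEV-HYP against sEV-CTRL and sEV-NORM against sEV-CTRL. The 4 lymph node stroma markers (Ccl19, Ccl21a, Cxcl13 and Chst4) were detected in all libraries, at a sum of 445 to 802 CPM in sEV-CTRL, 548 to 1175 CPM in sEV-NORM and 437 and 800 CPM in sEV-HYP glands. The 11 T cell markers summed to 430 to 901 CPM, 605 to 847 CPM, and 424 and 751 CPM in the same order. Skeletal muscle markers (Acta1, Ckm, Myh4 and Tnnt3) summed to 433 to 5258 CPM, 4.88 to 1933 CPM, and 2873 and 8607 CPM, so that both sEV-HYP glands stood above all sEV-NORM glands. The 4 basal markers summed to 208 to 328 CPM, 187 to 308 CPM, and 341 CPM in both sEV-HYP glands, above all others. Acta2 made up most of this sum in every gland, and the other basal markers did not follow it. For sEV-HYP against sEV-NORM the log2 fold change was 0.48 for Acta2, -0.10 for Krt5, -0.42 for Krt14 and -0.24 for Trp63. Against sEV-CTRL the values were 0.39, 0.0055, 0.027 and -0.13 in the same order of genes. Luminal (6 markers), basal and adipocyte (4 markers each) and myeloid (5 markers) lists were detected in full in every library. The part of tissue content in the immunoglobulin differences was not tested beyond the B cell score, and whether lymph nodes were removed is not given in the sources used here.

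Of the 12 plasma cell programme genes, 9 were highest in sEV-CTRL replicate 1. Mzb1, a chaperone of antibody assembly, was at 98.9 CPM in sEV-CTRL replicate 1 and at 9.47 to 33.0 CPM in the other 7 glands. Tnfrsf17, the plasma cell survival receptor BCMA, was at 2.54 CPM there and at 0.164 to 1.02 CPM elsewhere. Prdm1, which encodes the regulator Blimp-1, was at 16.2 CPM there and at 7.07 to 13.4 CPM in the others. Exceptions were Irf4, at 280 CPM in sEV-HYP replicate 2 and at most 153 CPM elsewhere, Sdc1, highest in sEV-HYP replicate 1 at 18.05 CPM, and Slamf7, highest in sEV-NORM replicate 2 at 83.9 CPM, the first and last of them named after their values were seen. The sEV-CTRL replicate 1 gland also had the highest level of 7 of the 10 genes, and of Ighe, the gene of IgE, at 145 CPM.

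Ighe, like Ighg1 and Ighg3, spread widely between glands. It was at 145, 0.547 and 1.15 CPM in sEV-CTRL glands, at 0.201, 2.22 and 12.3 CPM in sEV-NORM glands and at 53.7 and 0.642 CPM in sEV-HYP glands. The 3 glands with the most Ighe were also those with the most Ighg1. The lowest value rested on 5 counts, and no difference was called.

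In the plasma cell programme, 0 of 12 genes were called by edgeR between sEV-HYP and sEV-NORM. Of these 12, 10 were below 0, against 53.0% of all tested genes. Against sEV-CTRL, 1 was called, Sdc1 (syndecan-1, also made by epithelium), which was higher in sEV-HYP glands (0.64, SE 0.23). The 13 B cell identity genes had 0 calls in all 3 comparisons. All 13 were below 0 in both sEV-HYP comparisons, against 53.0% and 52.5% of all tested genes. Between sEV-NORM and sEV-CTRL 1 was below 0, against 50.2%. The 13 genes mark the same cell lineage, so they are not independent of each other. Their direction was not particular to them. All 11 T cell markers were also below 0 in both sEV-HYP comparisons, with a median of -0.28 in each. Of the 4 lymph node stroma markers, 4 were below 0 against sEV-NORM and 3 against sEV-CTRL. Of the 4 skeletal muscle markers, 0 were below 0 in either. Class switching and its cytokines had 0 calls among 12 genes in each comparison. Of all tested genes, 3.95%, 2.45% and 1.62% were called in sEV-HYP against sEV-NORM, sEV-HYP against sEV-CTRL and sEV-NORM against sEV-CTRL.

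Of the 10 genes of antibody transport and Fc receptors, Fcamr, a receptor for IgM and IgA, was called higher in sEV-HYP glands against sEV-NORM (1.23, SE 0.52) and against sEV-CTRL (1.23, SE 0.53). Its level was 1.88 and 3.32 CPM in sEV-HYP glands and 0.621 to 1.70 CPM in the other 6. Called higher in these comparisons were 2.25% and 1.39% of all tested genes. Fcgr1 and Fcgr4, activating receptors for IgG on myeloid cells, were called higher in sEV-NORM than in sEV-CTRL glands, at 0.52 (SE 0.21) and 0.81 (SE 0.29). Fcgr1 was at 11.3 to 16.3 CPM in sEV-NORM and at 7.99 to 11.1 CPM in sEV-CTRL glands. For Fcgr4 the sEV-NORM glands, at 16.9 to 27.8 CPM, overlapped the sEV-CTRL glands, at 9.69 to 18.7 CPM. Of all tested genes, 0.890% were called higher in that comparison. Pigr, which carries polymeric IgA and IgM into secretions, was at 0.504 to 1.61 CPM in all glands, and Fcgrt, the neonatal receptor for IgG, at 24.9 to 43.1 CPM, with no call for either.

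Among the 9 tested genes of IgA plasma cell homing, Vcam1, an adhesion molecule of endothelium, was called lower (-0.73, SE 0.22) and the chemokine receptor gene Cxcr4 called higher (1.14, SE 0.36) in sEV-HYP than in sEV-NORM glands. Neither was called against sEV-CTRL. Of all tested genes, 1.70% were called lower and 2.25% higher in sEV-HYP than in sEV-NORM glands. Ccl28, the chemokine that draws IgA plasma cells to the lactating gland, was at 0.322 to 1.39 CPM, and Ccr10, its receptor, was at 0.182 CPM or less, with a count of 0 in 1 library, which allows up to 3 counts.

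The variable segments, which are joined to the constant regions in the antibody transcript, were counted as genes of their own. Of 185 heavy chain segments (Ighv), 77 to 104 had at least 1 count in a library, and of 160 kappa segments (Igkv), 94 to 107. Summed Ighv was lowest in sEV-HYP replicate 2, at 52.9 CPM, and highest in sEV-CTRL replicate 1, at 563 CPM. In 7 of 8 libraries the leading Ighv segment held 9.12% to 21.1% of the Ighv counts. In sEV-CTRL replicate 2, the gland with almost no Ighg1, Ighv3-6 held 66.0%, from 2273 counts, against 6.41% to 10.8% in the other 7.

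In sEV-HYP replicate 1, the gland with the highest Ighg1 share of IgG counts, Ighv1-55 led with 21.1% of Ighv counts, against 1.13% to 3.92% elsewhere. Igkv1-117 led the kappa segments of the same gland with 25.8%, against 3.47% to 5.56% elsewhere. The leading Igkv segment held 9.66% to 15.3% in the other 7 libraries. Heavy and light segments of 1 cell cannot be joined in such counts.

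The genes whose log2 CPM was most like a member's over the 8 libraries, among tested genes outside the antibody genes, are a description only. The glands differed in depth and tissue content, and the genes were picked as the highest r among all those compared. For Igkc they were Tent5c (r = 0.97), Derl3, a protein of endoplasmic reticulum degradation (r = 0.97), Gm28417 (r = 0.97), Cyp4f37 (r = 0.95) and Nadsyn1 (r = 0.95). For Jchain they were Rnf32 (r = 0.95), Gm42727 (r = 0.94), Ufsp2 (r = 0.93), Naa35 (r = 0.93) and Gm8251 (r = 0.93). For Igha they were Myo1h (r = 0.98), Zfp59 (r = 0.98), Imp3 (r = 0.94), Sytl3 (r = 0.92) and Gm33994 (r = 0.91).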

How the data were processed

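RNA was sequenced from 8 whole mammary glands in 3 groups taken from the treatment labels. The authors prepared libraries with the Lexogen SENSE kit, mapped them to mm10 using STAR and ran RSEM 1.2.12 over Ensembl genes. The counts deposited are integers with no scaling applied, and how RSEM's estimates were rounded, and whether counting used strand, is not given in the sources used here. Symbols, positions and sequences came from GENCODE M21 on GRCm38, and 51596 of 51789 genes had a symbol.

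The main test was the two-sided quasi-likelihood F-test of edgeR 4.0.16 (R 4.3.3), after TMM scaling and filterByExpr at a minimum of 10 counts. P values were adjusted by the Benjamini-Hochberg method across the genes tested. The code was checked on counts simulated from the means and spread of this same fit, which cannot show how well the fit suits these data. DESeq2 1.42.0 was an alternative. Composition was tested with exact permutation tests (scipy 1.17.1). The SE of a fold change is its size divided by the square root of F. Genes named in the text were the 10 members, 4 further constant genes, 9 genes of the 5 lists, any list gene called, leading variable segments and the genes most like 3 members. The 4 basal markers were also named, after their values were seen. Ccr10, which did not pass the filter on counts, was named in addition as the receptor of Ccl28. Some list genes are not reported here and were left out of the lists. The members and lists were chosen with earlier results of these data known. P values measure the spread between glands, which the labels do not describe beyond their number.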

Additional observations from a re-analysis of the deposited data

How the results depend on the processing

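The call of Ighg2c was kept under all alternatives in both sEV-HYP comparisons, except without sEV-HYP replicate 1 against sEV-NORM. The number of the 10 genes called for sEV-HYP against sEV-NORM, 2 in the main analysis, was 4 without a filter on low counts and 5 with DESeq2 on only the groups compared. Against sEV-CTRL, 2 became 6 without a filter, 4 with DESeq2 on only the groups compared and 1 with the B cell score. For sEV-NORM against sEV-CTRL, 0 became 3 without a filter and 1 with the B cell score. The cause was not tested.

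Leaving out each library in turn gave 1 to 4 genes called for sEV-HYP against sEV-NORM, 1 to 5 against sEV-CTRL and 0 to 1 for sEV-NORM against sEV-CTRL. The IgA share differed by -0.0829 to 0.0164 percentage points for sEV-HYP against sEV-CTRL and by -0.00413 to 0.549 for sEV-NORM against sEV-CTRL. The lambda share differed by -1.57 to 2.90 for sEV-HYP against sEV-NORM. Jchain per count of Igha and Ighm differed by -0.0673 to 0.0464, -0.0943 to 0.0181 and -0.0848 to 0.0294 in the order sEV-HYP against sEV-NORM, sEV-HYP against sEV-CTRL, sEV-NORM against sEV-CTRL, and the sum of the 10 genes by -3903 to 3151 CPM in the last. Per kilobase of exon no measure of composition changed its sign.

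The log2 fold changes of single genes that turned their sign were not called in the main analysis. When a library was left out, the ranges for sEV-HYP against sEV-NORM were -3.31 to 1.02 for Ighg1 and -0.95 to 1.05 for Ighg3. For sEV-HYP against sEV-CTRL they were -4.00 to 4.26 for Ighg1 and -1.06 to 0.0067 for Ighd. For sEV-NORM against sEV-CTRL they were -0.23 to 2.11 for Igha, -0.091 to 0.63 for Ighd, -1.27 to 4.15 for Ighg1, -1.44 to 0.12 for Ighg2b, -0.48 to 0.43 for Ighg2c, -0.22 to 0.71 for Ighm, -0.78 to 0.70 for Igkc, -0.52 to 1.11 for Iglc1 and -0.67 to 1.01 for Jchain. With the B cell score Ighg1 was at -0.35, 1.71 and 2.06 in the 3 comparisons.

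Whether the replicate numbers pair the glands is not given in the sources used here. Correlations of deviations from the group means cannot settle it, since deviations sum to 0 within each group. Same-numbered sEV-CTRL and sEV-NORM glands had correlations of -0.285, -0.416 and -0.013. Same-numbered pairs were at 0.369 and 0.337 for sEV-CTRL with sEV-HYP and at -0.134 and -0.307 for sEV-NORM with sEV-HYP, whose 2 glands deviate in opposite ways by construction. With the replicate block, 2, 1 and 0 genes were called, Ighg1 was at -3.13, 0.13 and 3.26, Ighg3 at -0.38 for sEV-HYP against sEV-NORM, and Igkc at 0.094 and Jchain at 0.18 for sEV-NORM against sEV-CTRL. Under the block Ighm was called (-1.25) and Igha was not called against sEV-NORM (-1.76), nor Ighg2b against sEV-CTRL (-1.995). With 2 sEV-HYP glands, leaving out 1 assumes that the lone gland varied like the others.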
